A study of Saccharomyces cerevisiae with 36 samples.

Results

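This report describes the first 15 min of heat shock in wild-type (WT) budding yeast, Saccharomyces cerevisiae, that had not been heated before. The samples were chosen by their labels as WT, no-memory, 15 min (3 samples) and 0 min (3 samples), which are 6 of the 36 samples of an RNA-seq experiment. WT was the haploid laboratory strain BY4741, with the genotype MATa his3Δ1 leu2Δ0 met15Δ0 ura3Δ0, and all cultures were grown to exponential phase in rich YPD medium at 30°C. At 15 min the cells had been held at 39°C, which was reached by adding medium at 51°C, and at 0 min they were taken before heating. Other groups of the experiment were WT at 20 min of the same heat shock, WT and *mip6Δ* cells heated a second time (memory), and *mip6Δ* cells heated once, where *mip6Δ* is a deletion of *MIP6*, which codes for an RNA-binding protein. In the memory condition, cells had received 20 min at 39°C and then 60 min at 30°C before the heat shock that was sampled. A culture was divided between a memory and a no-memory flask, but the labels do not say that a replicate number names a culture. The paper describes samples taken in the course of the heat shock from each condition, and the main test here did not pair them. It also states that the no-memory culture received fresh medium at 30°C before its heat shock. The part of the medium added for heating in the changes at 15 min was not tested. Each group had 3 biological replicates, and each culture is a single strain from 1 background.

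Heat shock in yeast engages a pair of largely separate transcription programmes. Hsf1, a factor that binds heat shock elements, drives genes for chaperones, which hold, refold or disaggregate damaged proteins. Msn2 and Msn4, zinc-finger factors that bind stress response elements and are held back by protein kinase A during growth, drive the environmental stress response, which includes enzymes of trehalose and glycogen metabolism and of antioxidant defence. At the same time, genes for ribosomal proteins and for ribosome assembly, which take a large share of transcription in growing cells, are transiently repressed.

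The deposited read counts of the 6 libraries summed to between 28900397 and 32908224 at 15 min and between 28270651 and 32816754 at 0 min, against 28270651 to 42233578 in all 36. The table held 6403 genes, of which 5867 reached at least 1 CPM (counts scaled to a fixed library total) in at least 3 of the 36 samples and were tested. Levels are given as CPM after TMM scaling, a scaling that assumes that most genes do not change, so they are relative levels and the amount of mRNA per cell was not measured. Changes are log2 fold changes of 15 min over 0 min, with a standard error (SE), from edgeR's quasi-likelihood test on all 36 samples. A gene was called when its Benjamini-Hochberg adjusted p-value was under 0.05.

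The labelled strain was checked against mating-type markers. The 7 MATa-specific genes, which include the pheromone genes *MFA1* and *MFA2* and the receptor gene *STE2*, summed to between 484.1 and 700.7 CPM at 15 min and between 1740 and 2305 CPM at 0 min. The 4 genes specific to MATalpha cells summed to between 46.16 and 55.15 CPM at 15 min and between 53.34 and 57.43 CPM at 0 min, and nearly all of this came from *SAG1* and *STE3*. The MATalpha pheromone genes were close to 0, with at most 1.01 CPM for *MF(ALPHA)1* and at most 0.479 CPM for *MF(ALPHA)2* in the 6 libraries. *HIS3*, of which his3Δ1 removes only an internal part, had counts in every library and so checks nothing, and LEU2, MET17 and URA3 were not analysed here.

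The upstream regions of 4 genes show the DNA elements that the gene groups below are known for. The regions are 120 bases each, 5′ to 3′ on the coding strand, from the RefSeq R64 genome. The genes were picked by hand, and each region is the part of a 300-base window with the most marked bases. The regions therefore do not show how dense these elements usually are. Capitals mark the stress response element (AGGGG or CCCCT), the heat shock element (TTCNNGAANNTTC or GAANNTTCNNGAA), and 2 elements of ribosome biogenesis genes called PAC (GATGAG or CTCATC) and RRPE (AAAATTT or AAATTTT). *HSP12* (chrVI:106821-106940) stands for the Msn2/4 genes, *HSP104* (chrXII:88288-88407) carries both stress elements, *BTN2* (chrVII:772094-772213) is a chaperone gene that was not called, and *RPA190* (chrXV:960706-960825) is a growth gene that fell.
HSP12: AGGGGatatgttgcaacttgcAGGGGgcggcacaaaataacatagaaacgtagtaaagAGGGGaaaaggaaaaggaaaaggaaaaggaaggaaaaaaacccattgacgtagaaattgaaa
HSP104: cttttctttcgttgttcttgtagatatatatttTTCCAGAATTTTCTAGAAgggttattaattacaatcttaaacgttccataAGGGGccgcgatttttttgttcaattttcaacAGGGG
BTN2: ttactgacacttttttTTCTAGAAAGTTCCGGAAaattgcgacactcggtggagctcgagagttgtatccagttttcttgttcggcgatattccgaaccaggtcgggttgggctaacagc
RPA190: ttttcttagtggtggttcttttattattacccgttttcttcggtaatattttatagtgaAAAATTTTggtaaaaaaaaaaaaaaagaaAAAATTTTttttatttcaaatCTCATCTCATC
The 2 heat shock elements of *HSP104* and of *BTN2* overlap each other, the PAC copies of *RPA190* share a base, and each AAAATTTT is an RRPE on both strands. Motifs were counted on both strands in windows of 300 bases, which begin 450 bases before the start codon and do not cover the whole promoter.

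Heat shock changed most of the transcriptome within 15 min. Of 5867 genes, 4295 (73.2%) were called, 2150 of them higher (36.6%) and 2145 lower (36.6%) at 15 min than at 0 min. Over 2-fold changes were found in 715 genes that rose (12.2%) and 883 that fell (15.1%), and changes over 16-fold in 48 genes that rose and 73 that fell. All 3 libraries at 15 min lay above all 3 at 0 min in 2224 genes (37.9%), and below them in 2203 genes (37.5%). Because most genes were called, a call alone says little about a gene group. The counts of each group below are to be read against the 36.6% of all genes called in each direction. These shares are repeated only for some groups. The median log2 fold change over all genes tested was 0.01. Direction counts of small changes depend on the scaling, since upper quartile scaling moved the median of all genes to 0.15 and the higher share of the calls to 58.6%, against 50.1% with TMM.

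Of the 27 groups plotted, genes of the Msn2/4 response, trehalose metabolism and Hsf1-dependent chaperones had the highest medians. Proteasome subunits, antioxidant genes and respiratory chain genes had smaller positive medians, and genes for ribosomal proteins, ribosome assembly, translation and the synthesis of nucleotides and amino acids had negative ones.

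**Figure D1:**
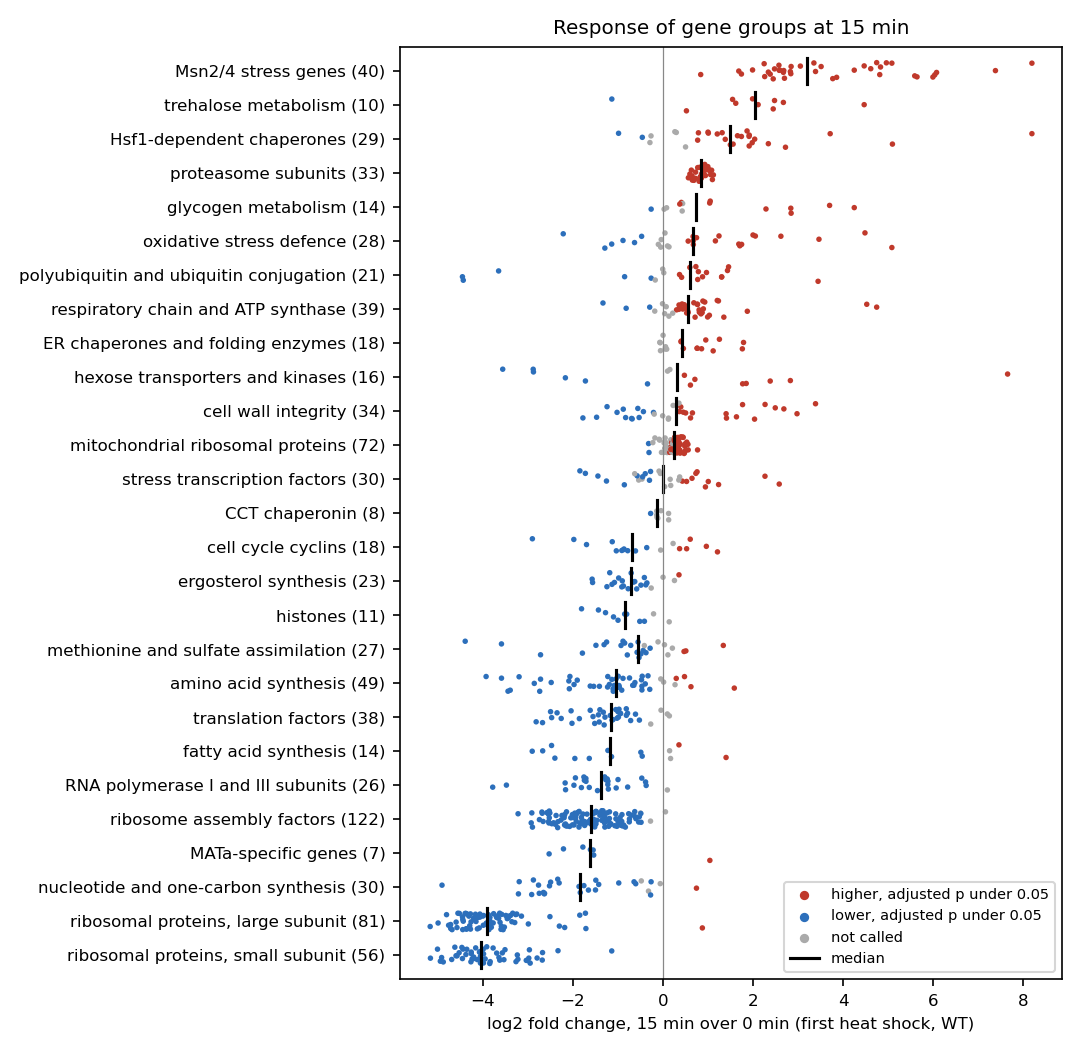
Response of 27 gene groups at 15 min. Each point is the log2 fold change (15 min over 0 min, x axis) of 1 gene, coloured by whether it was called higher, called lower or not called, each black bar is the group median, and the number of genes tested follows each group name. The Msn2/4 genes had a median of 3.20, and ribosomal proteins of the small and large subunit had medians of −4.05 and −3.91.

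The largest rise was that of *HSP26*, which encodes a small heat shock protein that binds unfolding proteins. *HSP26* had 10567, 15565 and 14921 CPM at 15 min, against 46.7, 48.9 and 44.1 CPM at 0 min, with no overlap. Its level rose 294-fold, with a log2 fold change of 8.20 ± 0.32 (SE, adjusted p = 3.9e-17, edgeR). Of the 12 largest rises, 8 belonged to the gene lists used here.

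*HXT5*, a hexose transporter of cells that grow slowly or are stressed, had 723, 969 and 827 CPM at 15 min, against 4.64, 2.44 and 5.45 CPM at 0 min (log2 fold change 7.66 ± 0.37 SE, adjusted p = 1.5e-15). *HSP12*, a small membrane-associated stress protein, had 6343, 7133 and 6642 CPM at 15 min, against 39.1, 24.4 and 56.6 CPM at 0 min (7.39 ± 0.43). The groups of both genes were far apart, although the 0-min libraries of *HSP12* differed more than 2-fold among themselves. *FMP45*, a membrane protein related to the eisosome protein Sur7, had 924, 1024 and 1229 CPM at 15 min, against 8.63, 7.32 and 11.1 CPM at 0 min (6.88 ± 0.32). *EGO4* had 269.6, 423 and 449 CPM at 15 min, against 2.56, 1.80 and 3.85 CPM at 0 min (7.13 ± 0.40). The libraries at 15 min exceeded every library at 0 min by a wide margin in each case.

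The remaining large rises included minor isozymes of the pentose phosphate pathway, which makes NADPH. *GND2*, the minor 6-phosphogluconate dehydrogenase, rose by 6.08 ± 0.37 on the log2 scale, *TKL2*, the minor transketolase, by 6.0 ± 0.40, and *NQM1*, a relative of the transaldolase Tal1, by 5.79 ± 0.23 (SE). *ALD3*, a cytosolic aldehyde dehydrogenase, rose by 6.04 ± 0.42, but its copy *ALD2* is 91.9% identical, so its reads may be shared. *DDR2*, a small stress protein, rose by 5.65 ± 0.43, and 2 genes of unknown role, *YCL048W-A* and *FMP16*, rose by 6.51 ± 0.38 and 5.76 ± 0.35.

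The stress genes of Msn2 and Msn4 rose as a whole group. All 40 listed genes were called higher at 15 min (against 36.6% of all genes), 39 of them by more than 2-fold, and their median log2 fold change was 3.20 against 0.01 for all genes tested. Together they summed to 80530, 106000 and 103100 CPM at 15 min, against 15270, 10990 and 10040 CPM at 0 min. Members ranged from *GPD1*, glycerol-3-phosphate dehydrogenase, at 0.84 to *HSP26* at 8.20. *CTT1*, the cytosolic catalase, had 841, 1090 and 1179 CPM at 15 min, against 31.8, 25.1 and 34.7 CPM at 0 min (5.09 ± 0.33 SE, adjusted p = 1.6e-13). *PGM2*, the major phosphoglucomutase, had 1964, 2717 and 2482 CPM at 15 min, against 119.7, 81.1 and 122.2 CPM at 0 min (4.47 ± 0.43). In both genes the libraries of the 2 times did not overlap, and replicate 1 was the lowest of the 3 libraries at 15 min.

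The list was assembled from genes known as Msn2/4 targets and with earlier results of these data known, so its direction is no independent evidence. The other lists were also chosen with those results known. The stress response element was present in the upstream windows of 32 of the 40 genes (80.0%), against 23.5% of 5758 protein-coding genes. Msn2 and Msn4 bind this element, so its share in a list of their targets is no independent evidence either. The same holds for heat shock elements in the list of Hsf1-dependent genes. *HSP12* had 5 copies in its window, 3 of which are printed above.

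The mRNAs of the factors themselves moved little or moderately. *MSN4* had 133.2, 144.0 and 165.1 CPM at 15 min, against 101.0, 86.5 and 140.8 CPM at 0 min (0.43 ± 0.19 SE, adjusted p = 0.043), and the groups overlapped. *MSN2* had 202.8, 181.8 and 187.2 CPM at 15 min, against 152.7, 174.0 and 185.5 CPM at 0 min, and was not called (0.16 ± 0.08, adjusted p = 0.074). *HSF1* rose to 205.1, 214.8 and 222.1 CPM at 15 min, against 87.6, 95.1 and 89.9 CPM at 0 min (1.24 ± 0.06, adjusted p = 3.3e-15). The call of *MSN4* was lost under 6 of the alternative analyses, whereas that of *HSF1* was kept under each of them.

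Of 30 listed stress transcription factors, 10 were higher, 10 were lower and 10 were not called (against 36.6% of all genes in each direction). The largest rises were those of *USV1*, a zinc-finger factor, at 2.58 ± 0.25 (SE), and of *XBP1*, a repressor of cyclin genes, at 2.27 ± 0.31. *YAP1*, the main factor of the oxidative stress response, rose by 0.94 ± 0.06. Factors that fell included *PHD1* at −1.85 ± 0.25, *CIN5* at −1.73 ± 0.57 and the glucose repressor gene *MIG2* at −1.26 ± 0.19. *CIN5* had 30.8, 23.6 and 20.8 CPM at 15 min, against 154.2, 53.0 and 41.5 CPM at 0 min. The size of its change rests on replicate 1 at 0 min, and its call was lost without that library. The list median was −0.01.

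Chaperone genes that depend on Hsf1 rose too, but less uniformly. Of 29 genes, 22 were higher (against 36.6% of all genes), 20 of them over 2-fold, 2 were lower and 5 were not called, and the median was 1.5. The 3 genes *HSP26*, *HSP104* and *HSP42*, belong to the Msn2/4 list as well. The chaperones summed to 156800, 196400 and 195100 CPM at 15 min, between 15.07% and 17.45% of all counts, against 65310, 49960 and 40540 CPM at 0 min. The sums did not overlap, and they spread more at 0 min than at 15 min relative to their means of 182800 ± 22490 and 51940 ± 12500 CPM (SD, n = 3 each).

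Among the Hsp70 genes, *SSA4*, a heat-inducible member, had 17856, 24318 and 24641 CPM at 15 min, against 2802, 1485 and 798 CPM at 0 min (3.72 ± 0.67 SE, adjusted p = 1.6e-05, edgeR). *SSA3*, also inducible, had 2017, 2318 and 2572 CPM at 15 min, against 81.2, 67.4 and 52.9 CPM at 0 min (5.10 ± 0.26). *SSA1* and *SSA2*, which are expressed during growth, rose by 1.66 ± 0.44 and 1.21 ± 0.32. All 4 genes were higher in every library at 15 min than in any at 0 min.

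*HSP104*, the disaggregase that pulls proteins out of aggregates, had 15748, 19711 and 18621 CPM at 15 min, against 5130, 3445 and 2096 CPM at 0 min (2.34 ± 0.57 SE, adjusted p = 0.00064). *HSP82*, the inducible Hsp90, had 10871, 13296 and 12713 CPM at 15 min, against 4376, 3193 and 2209 CPM at 0 min (1.92 ± 0.55). Neither gene overlapped between the times, and both had their lowest library at 15 min and their highest at 0 min in replicate 1. *CPR6*, a cyclophilin that works with Hsp90, rose by 2.72 ± 0.31, and the mitochondrial chaperonin genes *HSP60* and *HSP10* rose by 1.5 ± 0.24 and 2.04 ± 0.19. *HSP78*, the mitochondrial counterpart of Hsp104, rose by 1.87 ± 0.54.

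Several cochaperone and sorting genes were not called higher at 15 min. *BTN2*, which sorts misfolded proteins into deposits, had 1895, 2507 and 2121 CPM at 15 min, against 2728, 1717 and 990 CPM at 0 min (0.26 ± 0.71 SE, adjusted p = 0.75), although its window carries 2 overlapping heat shock elements. *FES1*, an exchange factor of Hsp70, had 1016, 1434 and 1266 CPM at 15 min, against 1478, 934 and 617 CPM at 0 min (0.30 ± 0.39). In both genes the levels at 15 min lay within the range at 0 min. *APJ1*, a J-protein, had 160.4, 232.7 and 205.3 CPM at 15 min, against 571.0, 375.2 and 240.6 CPM at 0 min (−0.99 ± 0.43, adjusted p = 0.042), and *MGE1*, the exchange factor of mitochondrial Hsp70, fell by 0.46 on the log2 scale. The chaperone list was not low at 0 min, with a mean sum of 51940 CPM, against 17910 CPM in WT memory cultures before their second heat shock. The part of this starting level in the small fold changes was not tested. Heat shock elements of the form printed above were found in the windows of 12 of the 29 genes (41.4%), against 1.06% of all 5758.

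**Figure D2:**
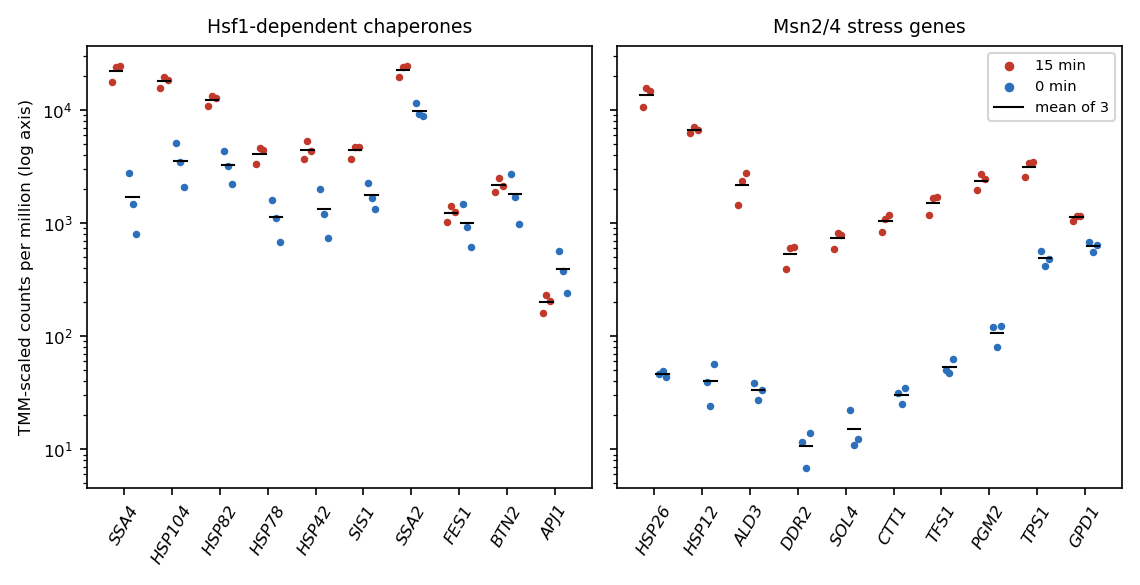
Levels of 10 Hsf1-dependent chaperone genes (left) and 10 Msn2/4 stress genes (right) in the 3 libraries at 15 min and the 3 at 0 min. The y axis is TMM-scaled CPM on a log axis, each point is a library and each line is the mean of 3. *BTN2*, *FES1* and *APJ1* are the chaperone genes without a rise, and the 0-min levels of the chaperone genes spread widely.

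The spread of the chaperones at 0 min followed the libraries. Replicate 1 was the highest of the 3 libraries in 27 of 29 chaperone genes (93.1%, against 36.9% of all genes), and replicate 3 was the lowest in 29 of 29. The highest level exceeded the lowest by a median of 1.53-fold, against 1.18-fold for all genes. Of the 37 Msn2/4 genes outside the chaperone list, replicate 1 was the highest in 17 (45.9%). The library numbered 1 also had the highest chaperone sum at 0 min in *mip6Δ* no-memory cultures (61080, 46170 and 38950 CPM) and in WT memory cultures (34100, 12420 and 7210 CPM). The part of this library difference in the fold changes was not tested beyond leaving libraries out, and without replicate 1 at 0 min 22 chaperone genes were higher, 1 was lower and the median was 1.59 (an analysis added after the values were seen). Leaving out each of the 6 libraries in turn gave 20 to 22 higher chaperone genes, 1 lower one in 5 cases and 3 lower ones without replicate 3 at 0 min, and 39 or 40 higher Msn2/4 genes.

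Genes of trehalose metabolism, which make and degrade a disaccharide that protects proteins and membranes, rose in both directions of the pathway. Of 10 genes, 9 were higher and 1 was lower, with a median of 2.05. *TPS1*, the trehalose-6-phosphate synthase, had 2546, 3385 and 3458 CPM at 15 min, against 569, 422.2 and 478.6 CPM at 0 min (2.68 ± 0.26 SE, adjusted p = 5.9e-10). *NTH1*, the neutral trehalase that breaks trehalose down, had 1012, 1355 and 1273 CPM at 15 min, against 214.2, 230.2 and 208.4 CPM at 0 min (2.48 ± 0.19). The groups did not overlap in either gene. *TPS2* rose by 1.99 ± 0.30, *TSL1* by 2.45 ± 0.51 and *TPS3* by 1.62 ± 0.14, and the gene that fell was *PGM1*, the minor phosphoglucomutase (−1.14 ± 0.09). The stress response element was present in 9 of the 10 windows.

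Of 14 glycogen genes, 9 were higher, 1 was lower and 4 were not called, with a median of 0.74. *GPH1*, glycogen phosphorylase, rose by 4.25 ± 0.39, *GDB1*, the debranching enzyme, by 3.70 ± 0.26, and *GSY2*, the major glycogen synthase, by 2.85 ± 0.27 on the log2 scale (SE). Genes for both synthesis and breakdown were thus among the rises, while *GSY1*, the minor synthase, was not called at 0.44.

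Antioxidant genes split. Of 28 genes, 16 were higher, 6 were lower and 6 were not called, with a median of 0.67. *TSA2*, a peroxiredoxin, had 158.3, 199.6 and 271.2 CPM at 15 min, against 9.24, 9.11 and 9.66 CPM at 0 min (4.49 ± 0.27 SE, adjusted p = 3.4e-14), with no overlap. *GPX1*, a glutathione peroxidase, rose by 3.47 ± 0.22 and *PRX1*, the mitochondrial peroxiredoxin, by 2.62 ± 0.21. *GPX2* fell by 2.22 on the log2 scale, to 18.0, 20.1 and 22.1 CPM at 15 min, against 105.9, 99.8 and 74.6 CPM at 0 min.

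Genes of protein degradation rose by small, even amounts. All 33 proteasome subunit genes were higher, between 0.56 and 1.12 on the log2 scale, with a median of 0.85, and 6 passed 2-fold. Their sum was 12710, 13440 and 13590 CPM at 15 min, against 7265, 7663 and 7146 CPM at 0 min. The 3 libraries of each time differed little, and the times were well apart. *RPN4*, the factor known to drive proteasome genes, was not called (316.6, 352.8 and 299.8 CPM at 15 min, against 556.9, 391.1 and 390.3 CPM at 0 min, −0.47 ± 0.32, adjusted p = 0.19), and its levels at 15 min were all below those at 0 min.

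Of 21 genes for ubiquitin and its conjugation, 13 were higher, 5 were lower and 3 were not called, with a median of 0.60. *UBI4*, the stress-inducible polyubiquitin gene, had 2487, 3724 and 3346 CPM at 15 min, against 330.9, 308.1 and 237.6 CPM at 0 min (3.45 ± 0.23 SE, adjusted p = 3.3e-13). *RPS31*, *RPL40A* and *RPL40B*, which make ubiquitin fused to ribosomal proteins, fell by 4.46, 3.65 and 4.44 on the log2 scale, although *RPL40A* and *RPL40B* are near-identical copies of each other. The polyubiquitin gene and the fusion genes thus moved in opposite directions, with no overlap between the times in any of them.

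Other folding machines moved less. In the endoplasmic reticulum, 11 of 18 chaperone and folding genes were higher, none was lower and 7 were not called, with a median of 0.43. *KAR2*, the Hsp70 of that compartment, rose by 1.79 ± 0.30, and *MPD1*, a disulfide isomerase, by 1.76 ± 0.17 (SE). The CCT chaperonin, the ring that folds actin and tubulin, had 7 of 8 subunits not called, between −0.14 and 0.13, and *CCT7* was at −0.28, a call that was lost with upper quartile scaling (−0.15), without replicate 1 at 15 min (−0.19) and without replicate 2 at 0 min (−0.22).

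Ribosomal protein genes showed the largest coordinated fall. All 56 genes of the small subunit were lower (against 36.6% of all genes), each by more than 2-fold, with a median of −4.05, and 80 of 81 genes of the large subunit were lower, with a median of −3.91. The small subunit genes summed to 5338, 3596 and 4196 CPM at 15 min, against 74690, 69620 and 68120 CPM at 0 min. The large subunit genes summed to 7844, 5335 and 6362 CPM at 15 min, against 104300, 95740 and 94940 CPM at 0 min. The times were more than 10-fold apart in every library, and leaving out each of the 6 libraries in turn gave the same counts of 56 and 80 lower genes. In bulk samples, a smaller share of cells that express a gene and less RNA per cell cannot be told apart.

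*RPS22A* had 53.3, 33.9 and 35.2 CPM at 15 min, against 1489, 1424 and 1491 CPM at 0 min (−5.17 ± 0.38 SE, adjusted p = 1.4e-12). *RPS0B* had 99.0, 52.2 and 73.2 CPM at 15 min, against 2425, 2354 and 2464 CPM at 0 min (−5.01 ± 0.42). *RPL9A* had 42.4, 22.8 and 30.3 CPM at 15 min, against 1271, 1168 and 1011 CPM at 0 min (−5.17 ± 0.34). Replicate 1 was the highest library at 15 min in these 3 genes, in 55 of 56 small subunit genes and in 75 of 81 large subunit genes. The 12 largest falls were 11 ribosomal protein genes and *URA1*, and *RPS22A*, *RPL9A*, *RPS26B*, *RPS9B*, *RPL24A*, *RPL2A* and *RPL8B* among them have a copy of at least 90% identity, so that counts of single copies are uncertain.

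The exception among the ribosomal protein genes was *RPL15B*. *RPL15B* rose to 75.3, 75.3 and 73.8 CPM at 15 min, against 47.1, 38.4 and 36.9 CPM at 0 min (0.87 ± 0.17 SE, adjusted p = 3.3e-05), whereas its paralogue *RPL15A* fell to 138.8, 83.3 and 99.3 CPM, against 2337, 2094 and 1811 CPM at 0 min (−4.28 ± 0.31). The smallest falls were those of *RPS9A* (−1.14), *RPL41A* (−1.71) and *RPL41B* (−1.72). These genes outside the rule for named genes were picked after their values were seen. The Rap1 motif (ACCCNNACA or TGTNNGGGT), known from ribosomal protein promoters, was present in 14 of 56 small subunit windows and 33 of 81 large subunit windows (40.7%), against 3.70% of all.

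**Figure D3:**
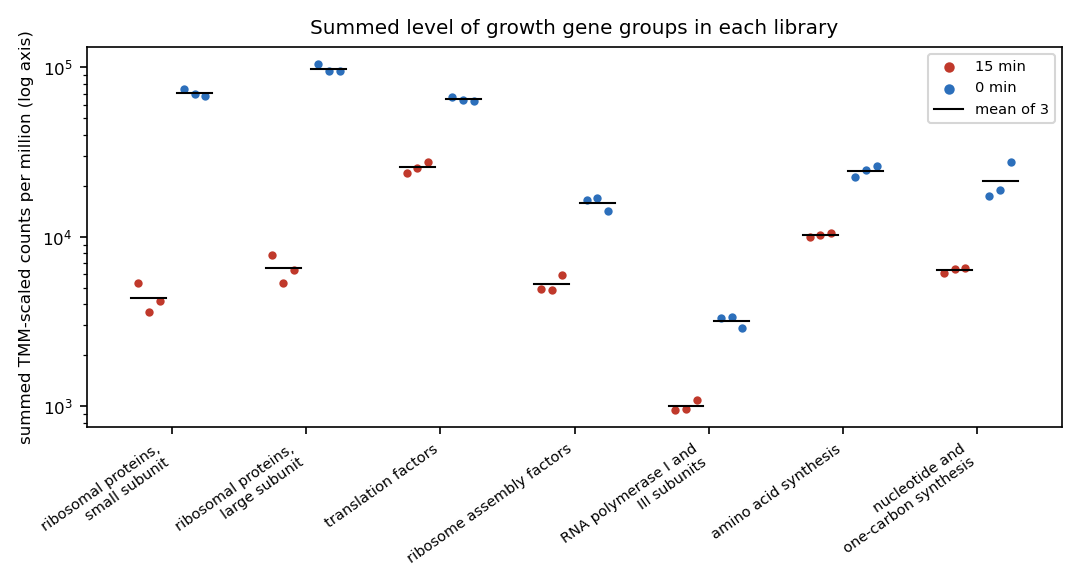
Summed level of 7 groups of growth genes in each of the 3 libraries at 15 min and the 3 at 0 min. The y axis is the sum of TMM-scaled CPM over the genes of a group on a log axis, and lines are means of 3. The small subunit sums lie between 3596 and 5338 CPM at 15 min and between 68120 and 74690 CPM at 0 min, and no group overlaps between the times.

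Genes that assemble ribosomes fell less steeply than the ribosomal proteins. Of 122 assembly factor genes, 119 were lower, 98 by more than 2-fold, 3 were not called and none was higher, with a median of −1.59. *RRP5*, needed for cuts in the precursor of ribosomal RNA, fell to 20.8, 22.1 and 33.8 CPM at 15 min, against 245.0, 275.0 and 194.6 CPM at 0 min (−3.22 ± 0.36 SE, adjusted p = 6.0e-09). *UTP20*, *NOP13* and *NOP7* fell by 2.93, 2.92 and 2.90. Replicate 3 was the highest library at 15 min in 99 of the 122 genes and the lowest at 0 min in 99.

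Of 26 genes for subunits and regulators of RNA polymerases I and III, which make ribosomal and transfer RNA, 25 were lower and *MAF1*, a repressor of RNA polymerase III, was not called at 0.10. *RPA190*, the largest subunit of RNA polymerase I, had 24.8, 25.1 and 35.2 CPM at 15 min, against 418.0, 420.6 and 333.8 CPM at 0 min (−3.79 ± 0.37 SE). *RPA135*, the second largest subunit, fell by 3.48. The PAC motif was present in 27.9% of the assembly factor windows and 34.6% of the polymerase windows, against 17.3% of all, and RRPE in 43.4% and 42.3%, against 20.9% of all.

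Translation factors fell in 34 of 38 genes, with 4 not called and a median of −1.15. Their sum was 23900, 25350 and 27730 CPM at 15 min, against 66890, 64110 and 63440 CPM at 0 min. *TEF4*, a subunit of elongation factor 1, fell by 2.82, *YEF3*, elongation factor 3, by 2.50, and *EFT2* and *TIF1*, which code for elongation factor 2 and the helicase eIF4A and have near-identical copies, by 2.68 and 2.47. *DED1*, another helicase of translation initiation, and *EFB1*, an exchange factor for elongation factor 1, were not called, at 0.14 and −0.04. Of 72 genes for proteins of the mitochondrial ribosome, 45 were higher (against 36.6% of all genes), by at most 0.77, while 2 were lower and 25 not called. Leaving out each of the 6 libraries in turn gave 35 to 46 higher genes. The median of the 72 genes was 0.25, and direction counts of changes this small depend on the scaling.

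Biosynthesis of nucleotides, amino acids and lipids fell with growth genes. Of 30 nucleotide and one-carbon genes, 26 were lower, 1 was higher and 3 were not called, with a median of −1.85. *URA1*, dihydroorotate dehydrogenase of the pyrimidine pathway, had 48.2, 39.3 and 39.4 CPM at 15 min, against 1386, 1331 and 1105 CPM at 0 min (−4.91 ± 0.30 SE, adjusted p = 5.4e-14). *ADE17* had 229.6, 227.2 and 178.1 CPM at 15 min, against 1047, 1404 and 3438 CPM at 0 min (−3.21 ± 0.30), and replicate 3 at 0 min was more than 2-fold above the others, without which the log2 fold change was −2.52. *ADE16*, the isozyme of the same purine step, was the member that rose, by 0.74 ± 0.09.

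Of 49 amino acid synthesis genes, 42 were lower, 4 were higher and 3 were not called, with a median of −1.04. *ARO4*, which starts the synthesis of aromatic amino acids, had 38.1, 37.8 and 45.0 CPM at 15 min, against 627.1, 605.6 and 611.5 CPM at 0 min (−3.93 ± 0.23 SE, adjusted p = 2.9e-14). *LEU9*, *ILV3* and *BAT1*, of the branched-chain pathway, fell by 3.59, 3.45 and 3.40. The members that rose were *ARG3* (1.58), *LYS1* (0.62), *ARG1* (0.48) and *ARG56* (0.29), of which 3 make arginine.

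In the methionine and sulfate group, 19 of 27 genes were lower, 3 were higher and 5 were not called, with a median of −0.55. *SAM1*, an S-adenosylmethionine synthetase, had 27.7, 45.1 and 49.3 CPM at 15 min, against 703.3, 861.9 and 1007 CPM at 0 min (−4.40 ± 0.30 SE), and *MET6*, methionine synthase, fell by 2.72 ± 0.27. In both genes the levels at 0 min were lowest in replicate 1 and highest in replicate 3, and the times did not overlap.

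Ergosterol genes fell in 19 of 23, with *ERG9* higher at 0.36 and 3 not called, and the largest falls were those of *ERG3* (−1.57) and *ERG13* (−1.56). Their median was −0.71. Fatty acid genes fell in 10 of 14, with 2 higher, 2 not called and a median of −1.18. *OLE1*, the fatty acid desaturase, had 111.1, 158.0 and 162.2 CPM at 15 min, against 827.5, 1007 and 918.8 CPM at 0 min (−2.67 ± 0.26 SE, adjusted p = 5.6e-10). The acyl-CoA synthetase genes *FAA1* and *FAA4* diverged, since *FAA1* rose by 1.40 ± 0.13 and *FAA4* fell by 2.91 on the log2 scale.

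Glucose uptake and phosphorylation genes were split by isoform. Of 16 genes, 8 were higher, 6 were lower and 2 were not called (against 36.6% of all genes in each direction), with a median of 0.31. *HXT5* rose as given above, whereas *HXT2*, a high-affinity transporter, fell to 129.8, 102.3 and 88.7 CPM at 15 min, against 2054, 850.8 and 886.9 CPM at 0 min (−3.56 ± 0.35 SE), and *HXT3*, *HXT4* and *HXT1* fell by 2.89, 2.88 and 2.17. Replicate 1 at 0 min was more than 2-fold above the others for *HXT2*. Hexokinase genes also diverged, since *GLK1* rose by 2.83 ± 0.31 and *HXK1* by 2.38 ± 0.41, and *HXK2* fell by 1.72 on the log2 scale.

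Respiratory chain and ATP synthase genes rose in 30 of 39, with 3 lower and 6 not called, and a median of 0.56. The 2 largest rises came from isoforms that are low in growing cells. *CYC7*, iso-2-cytochrome c, had 147.8, 177.0 and 168.2 CPM at 15 min, against 7.73, 5.42 and 5.22 CPM at 0 min (4.75 ± 0.51 SE, adjusted p = 2.5e-09), and *CYC1*, the major isoform, fell by 1.33. *NDE2*, an external NADH dehydrogenase, rose by 4.53 ± 0.27, and its paralogue *NDE1* fell by 0.82.

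Cell wall genes rose in 16 of 34, fell in 12 and were not called in 6 (against 36.6% of all genes in each direction). Their median was 0.29, so the single genes named here do not stand for the group. *SLT2*, the MAP kinase of the cell wall integrity pathway, had 290.9, 439.8 and 407.2 CPM at 15 min, against 74.5, 85.1 and 76.5 CPM at 0 min (2.27 ± 0.22 SE, adjusted p = 5.7e-10), and *RLM1*, the factor downstream of it, rose by 2.03 ± 0.15. The wall proteins *SPI1*, *PIR3* and *PST1* rose by 3.39, 2.98 and 2.69. *GAS1*, an enzyme that extends wall glucan, fell by 1.78, to 871.5, 673.8 and 829.5 CPM at 15 min, against 2635, 2555 and 2966 CPM at 0 min.

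Cell cycle genes fell in 11 of 18, rose in 5 and were not called in 2, with a median of −0.70. *CLN2*, a G1 cyclin, had 29.6, 16.4 and 19.5 CPM at 15 min, against 142.2, 142.9 and 205.2 CPM at 0 min (−2.90 ± 0.29 SE, adjusted p = 5.7e-10). Among mating genes, *FAR1*, an inhibitor of the cyclin-dependent kinase, fell by 1.70, and of the 7 MATa-specific genes 6 fell, with a median of −1.61 for the 7, while *ASG7* rose by 1.04. Histone genes fell in 9 of 11, by at most 1.81 for *HTB2*, with a median of −0.85. Counts of the paired H2A, H3 and H4 genes are uncertain because their copies are near-identical. Meiosis genes were low, with 14 members summing to between 114.5 and 123.4 CPM at 15 min and between 66.15 and 73.4 CPM at 0 min, and *DMC1*, the meiotic recombinase, rose by 3.04 ± 0.14 to at most 19.7 CPM.

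Genes of mRNA decay and granules moved little, with 10 of 26 higher, 6 lower, 10 not called and a median of 0.05. Of all genes, 36.6% were called in each direction. *RIE1*, an RNA-binding protein, had 646.7, 1117 and 944.5 CPM at 15 min, against 170.0, 199.8 and 140.1 CPM at 0 min (2.41 ± 0.23 SE, adjusted p = 3.8e-10). *MIP6* was low and not called, with 10.98, 5.30 and 6.33 CPM at 15 min, against 6.72, 5.59 and 5.22 CPM at 0 min (0.37 ± 0.30), and its paralogue *PES4* rose by 2.13 ± 0.28 to 8.86, 5.85 and 4.81 CPM, against 1.91, 1.35 and 1.21 CPM.

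Of 9 genes often used as references, 2 were higher, 3 were lower and 4 were not called. *ACT1*, actin, had 2620, 2909 and 2713 CPM at 15 min, against 2774, 2804 and 2718 CPM at 0 min (−0.01 ± 0.10 SE), and *UBC6* and *TFC1* were not called at 0.02 and −0.10. The groups overlapped for *ACT1* and *UBC6*. *PGK1*, phosphoglycerate kinase, rose by 0.73 ± 0.13, and *TUB1*, alpha-tubulin, *ALG9* and *TAF10* fell by 0.62, 0.45 and 0.41, the last of them no longer called under 2 of the alternative analyses. *SCR1*, the RNA of the signal recognition particle, which RNA polymerase III makes, rose to 137.7, 238.6 and 261.6 CPM at 15 min, against 7.41, 9.31 and 5.57 CPM at 0 min (4.83 ± 0.60, adjusted p = 3.9e-08).

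Some other RNAs that carry no or short poly(A) tails, looked at after their values were seen, rose like *SCR1* in these poly(A)-selected libraries, and others did not. *RPR1*, the RNA of RNase P, rose by 3.03 ± 0.41, *NME1*, of RNase MRP, by 2.28 ± 0.19, and the spliceosomal RNAs *SNR19* and *LSR1* by 2.72 ± 0.28 and 1.18 ± 0.24 (SE). Of 12 ribosomal RNA genes 7 were higher, and of 10 transfer RNA genes 7. Ribosomal RNA took 1.64%, 0.663% and 0.403% of the counts at 15 min, against 0.586%, 0.468% and 0.294% at 0 min, and the part of poly(A) selection in these rises was not tested. *TLC1*, the telomerase RNA, fell by 1.71, to 56.6, 43.0 and 47.0 CPM at 15 min, against 159.5, 149.9 and 169.1 CPM at 0 min. The snoRNAs had 12 of 53 genes higher and 13 lower (against 36.6% of all genes in each direction), with a median of −0.03.

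Few genes were called between 15 and 20 min in the main test, but the count depended on the analysis. In the comparison of 20 min with 15 min, which shares the 15-min libraries with the comparison above, 77 genes (1.31%) were called, 62 higher (1.06%) and 15 lower (0.256%) at 20 min. The count ranged from 11 to 341 when single libraries were left out, and from 22 to 629 under the other alternatives. With the replicate number as a block it was 462, 345 higher and 117 lower. None of the chaperone or Msn2/4 genes was called, and 1 of each list was lower with the block, with medians of −0.38 and −0.41 for 20 min over 15 min. The chaperones summed to 156800, 196400 and 195100 CPM at 15 min and to 121800, 149000 and 146900 CPM at 20 min, lower at 20 min in each of the 3 replicate numbers. Genes of the respiratory chain were among those lower at 20 min, with *ATP17*, *ATP7*, *ATP2* and *QCR8* at −0.52, −0.48, −0.46 and −0.39 on the log2 scale, and 22 of 39 were lower with the block.

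Methionine genes stood out among those higher at 20 min, with 9 of 27 called (against 1.06% of all genes), or 11 with the block. *STR3*, cystathionine beta-lyase, had 9.81, 13.1 and 12.2 CPM at 0 min, 6.37, 9.78 and 10.2 CPM at 15 min and 28.01, 43.9 and 44.7 CPM at 20 min (2.14 for 20 over 15 min, adjusted p = 0.00058, edgeR). *MET6* had 915.6, 1380 and 1859 CPM at 0 min, 218.8, 206.1 and 204.9 CPM at 15 min and 632.0, 599.3 and 637.7 CPM at 20 min (1.57, adjusted p = 0.0014). At 20 min, *STR3* stood above its 0-min levels, whereas *MET6* stayed below them. *MET2*, homoserine acetyltransferase, and *MUP1*, the methionine permease, were higher at 20 min by 1.15 and 0.94.

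Some ribosomal protein genes were higher at 20 min than at 15 min. Of 56 small and 81 large subunit genes, 6 and 7 were higher at 20 min than at 15 min, and *RPL41A* was lower, and with the replicate block 29 and 49 were higher. *RPS0B* had 2425, 2354 and 2464 CPM at 0 min, 99.0, 52.2 and 73.2 CPM at 15 min and 326.0, 98.5 and 170.7 CPM at 20 min (1.41, adjusted p = 0.046). The small subunit sum was 5338, 3596 and 4196 CPM at 15 min and 11050, 4329 and 5897 CPM at 20 min, higher at 20 min in each of the 3 replicate numbers, with replicate 1 highest at both times. *RIE1* went the other way, with 170.0, 199.8 and 140.1 CPM at 0 min, 646.7, 1117 and 944.5 CPM at 15 min and 277.6, 453.6 and 432.2 CPM at 20 min (−1.22, adjusted p = 0.0042).

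**Figure D4:**
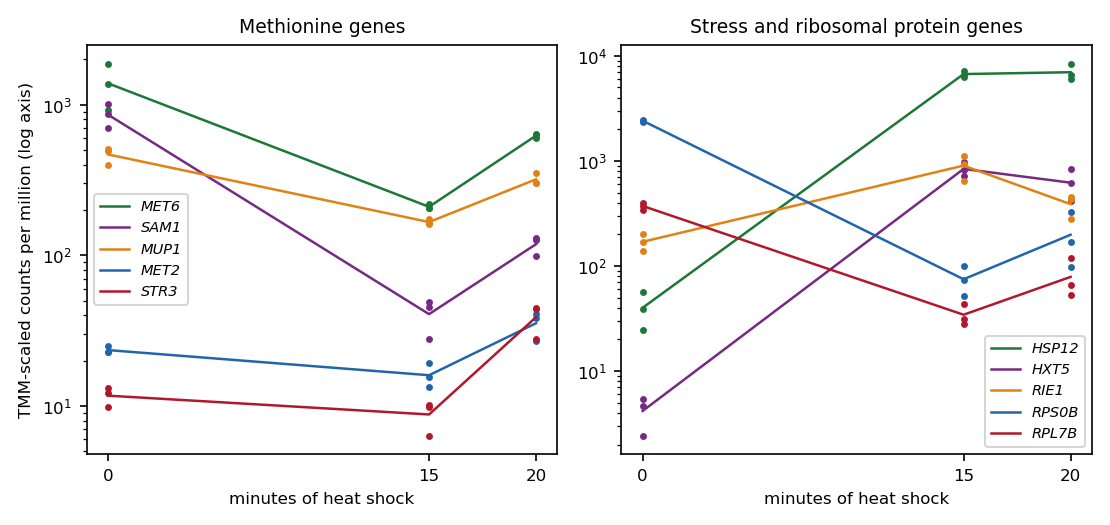
Levels of 5 methionine genes (left) and of 5 stress and ribosomal protein genes (right) at 0, 15 and 20 min of the first heat shock in WT. The x axis is time in minutes, the y axis is TMM-scaled CPM on a log axis, each point is a library and lines join the means of 3. *STR3* and *MET6* were higher at 20 min than at 15 min by 2.14 and 1.57 on the log2 scale, while *RIE1* differed by −1.22.

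Growth genes responded less in cells heated a second time than in cells heated once. The difference between the second and the first response at 15 min, which share no library, was called in 666 genes (11.4%), 441 higher (7.52%) and 225 lower (3.84%) for second minus first, and in 1233 genes, 784 higher and 449 lower, with the replicate number as a block. All 56 small subunit and 77 of 81 large subunit ribosomal protein genes were higher, with median log2 fold changes of −1.95 in the second response and −4.05 in the first for the small subunit, and of −1.96 and −3.91 for the large. The small subunit genes summed to 21350, 14200 and 16810 CPM at 15 min of the second heat shock and to 5338, 3596 and 4196 CPM at 15 min of the first. Their levels before heating overlapped, at 64500, 72140 and 70190 CPM in memory cultures and 74690, 69620 and 68120 CPM in no-memory cultures. *RPS0B* differed by 2.90 and *RPS22A* by 2.87 (adjusted p = 0.00034 and 0.00023).

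The assembly factors had medians of −0.75 in the second and −1.59 in the first response, and 21 of 122 were called higher, or 65 with the block. RNA polymerase I and III genes (13 of 26), translation factors (17 of 38) and amino acid synthesis genes (18 of 49) were also called higher, none of them lower (2 amino acid genes were lower with the block), and the methionine list had 2 lower and none higher.

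Chaperone, Msn2/4 and trehalose genes had lower summed levels at 15 min of the second heat shock than at 15 min of the first, and the libraries of the 2 did not overlap. The chaperones averaged 80880 ± 10500 CPM at 15 min of the second heat shock and 182800 ± 22490 CPM at 15 min of the first, and 17910 ± 14260 CPM before the second and 51940 ± 12500 CPM before the first (SD, n = 3 each). The Msn2/4 genes averaged 49230 ± 9371 CPM at 15 min of the second and 96560 ± 13960 CPM at 15 min of the first, and the trehalose genes 7993 ± 1681 CPM and 17330 ± 2553 CPM. As log2 fold changes over the level before each heat shock, the chaperones had medians of 1.80 in the second and 1.5 in the first response. Of 29 genes 2 were called (against 11.4% of all genes), *SSA3* lower (−1.28, adjusted p = 0.0079, edgeR) and *MGE1* higher (0.50). *SSA3* averaged 950.2 ± 155.2 CPM at 15 min of the second heat shock and 2302 ± 277.7 CPM at 15 min of the first (SD, n = 3 each). The Msn2/4 genes had medians of 2.92 and 3.20, with *GAC1*, *RTN2* and *USV1* of 40 called lower (against 3.84% of all genes). None of 10 trehalose genes was called, and 1 was lower with the block, although their medians were 1.13 in the second and 2.05 in the first response, and 4 of 14 glycogen genes were lower, *GAC1*, *GLC3*, *PIG2* and *GDB1*. *HXT5* reached 330.9 ± 91.67 CPM at 15 min of the second heat shock and 839.6 ± 123.1 CPM at 15 min of the first (−1.82, adjusted p = 0.0051). Leaving out single libraries gave 376 to 728 genes for the whole comparison.

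**Figure D5:**
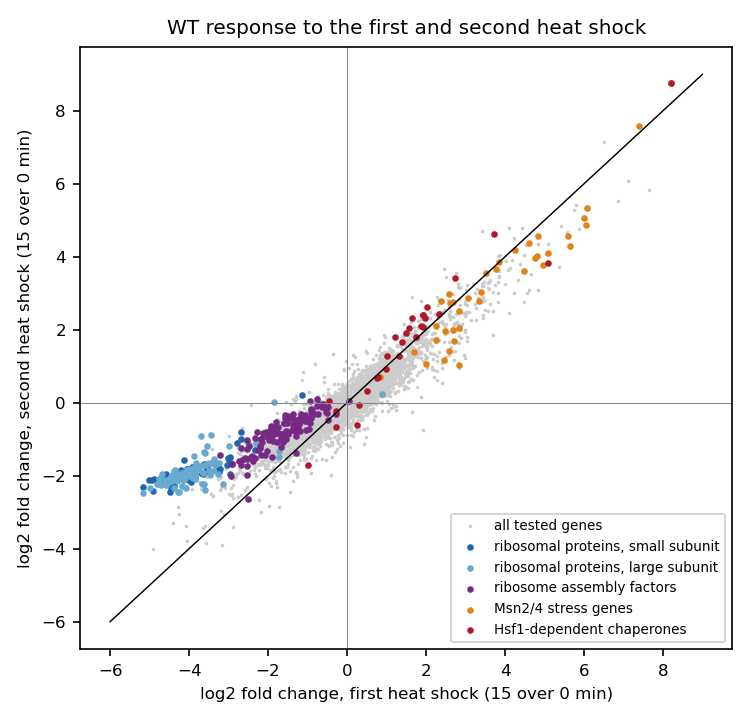
Response of each tested gene in WT to the second heat shock (y axis) against the first (x axis), both as log2 fold change of 15 min over 0 min, with 5 gene groups coloured and a line where both are equal. Ribosomal protein genes lie near −2 for the second and near −4 for the first, with medians of −1.95 and −4.05 for the small subunit.

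The first response of *mip6Δ* cells was not found to differ from that of WT. No gene was called (0%) for the difference between the *mip6Δ* and WT responses at 15 min, which share no library, with edgeR, DESeq2 or limma. At an unadjusted p-value under 0.05, edgeR counted 76 genes (1.3%). *HSP12* averaged 7466 ± 1481 CPM in *mip6Δ* and 6706 ± 399.0 CPM in WT at 15 min, and *RPS0B* 50.1 ± 34.1 CPM in *mip6Δ* and 74.8 ± 23.4 CPM in WT (SD, n = 3 each). A p-value that misses the threshold does not show that the strains respond alike.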

How the data were processed

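RNA was extracted with hot acid phenol, poly(A) RNA was made into TruSeq Stranded mRNA libraries, and reads were sequenced from 36 samples in 12 groups of 3 biological replicates. The submitters' notes name FastQC, Trimmomatic, HISAT2, StringTie and the sacCer3 build, with versions not given in the sources used here, and whether counting used strand is not stated. The authors deposited raw read counts per gene and a table of normalized counts (a signal from a low-count filter, TMM and ARSyN), which was used only as an alternative. That table was limited to 6172 genes, and some stress genes, *SSA4* and *BTN2* among them, are not analysed in that alternative.

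From the deposited counts, genes with at least 1 CPM in at least 3 samples were tested with edgeR 4.0.16 in R 4.3.3 (TMM, quasi-likelihood, 12 groups in 1 fit, Benjamini-Hochberg over 5867 genes, threshold 0.05). Alternatives used DESeq2 1.42.0, other scalings and filters, a replicate block, fits to the compared groups only, leaving out libraries, and limma 3.58.1 on log2 normalized counts with a pseudocount of 1 or 10. On simulated data, 50 genes were changed at each of 1.5-, 2-, 4- and 8-fold, and 5667 of 5867 were left unchanged. The comparison of 15 with 0 min recovered 74%, 86%, 100% and 100% of these changes. The second minus the first response recovered 34%, 68%, 94% and 98%. In the measured data 4295 of 5867 genes were called for 15 over 0 min, and recovery with so many changes was not tested. Depth, at 28270651 counts or more per library, is given with the report.

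The members and lists were chosen with earlier results of these data known. Genes were named as the 12 largest changes in each direction with no overlap and at least 10 CPM on average, up to 4 of the largest called changes of each list, and all members of short lists and of the transcription factor, reference, mating-type and assayed lists. Other genes named in the text were picked after their values were seen. Near-identical copies shared 90% or more of their bases across 50% or more of the gene (BLAST+ 2.17.0), and *TEF4* was the named gene that overlaps another (SNR38). Replicates of each group differed by more than sampling noise.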

Additional observations from a re-analysis of the deposited data

Results flagged for a closer look

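The responses to the second and to the first heat shock at 15 min in WT differed in 666 genes by edgeR's test of the difference (adjusted p under 0.05). The values here are log2 differences of second minus first, given only for genes named in the text that were called. Ribosomal protein genes were higher by this measure, with *RPS0B* at 2.90, *RPS22A* at 2.87, *RPS26B* at 2.84, *RPS9B* at 2.79, *RPL9A* at 2.71, *RPL2A* at 2.69, *RPL24A* at 2.66, *RPL8B* at 2.48, *RPL40B* at 2.36, *RPS31* at 2.10, *RPL15A* at 1.84, *RPL40A* at 1.74 and *RPS9A* at 1.36.

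Some genes of ribosome production and translation were higher too, with *RPA190* at 1.96, *RPA135* at 1.86, *RRP5* at 1.78, *NOP13* at 1.23, *EFT2* at 0.93, *TEF4* at 0.87 and *TIF1* at 0.76. Biosynthesis genes were *ARO4* at 1.58, *LEU9* at 1.26, *ILV3* at 0.94, *BAT1* at 0.85, *HIS3* at 0.63 and *ERG13* at 0.48, and others were *CLN2* at 1.39, *FAR1* at 1.09, *MFA1* at 1.00, *CYC1* at 0.69, *PGK1* at 0.59 and *MGE1* at 0.50.

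In the stress gene lists, 3 of 40 Msn2/4 genes and 1 of 29 chaperone genes were lower, against 3.84% of all genes. Of the chaperone genes 1 was higher, against 7.52% of all genes, and no trehalose gene was called. Single stress and carbohydrate genes were lower by this measure, with *RIE1* at −1.86, *HXT5* at −1.82, *GAC1* at −1.81, *GLC3* at −1.67, *FMP45* at −1.35, *SSA3* at −1.28, *PIN3* at −1.28, *PIG2* at −1.26, *RTN2* at −1.19, *GDB1* at −1.18, *USV1* at −1.17 and *MPD1* at −1.0. The remaining ones were *STR3* at −1.56, *SNR19* at −1.56, *IRA2* at −1.41, *SIP4* at −1.21, *NME1* at −1.13 and *QCR8* at −0.48.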

How the results depend on the processing

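The number of genes called for 15 over 0 min lay between 4036 and 4737 under every alternative, against 4295, and between 4058 and 4145 when single libraries were left out. The number over 2-fold lay between 1428 and 1695, against 1598, and between 1571 and 1652 when single libraries were left out. Upper quartile scaling gave 2541 higher and 1795 lower genes, against 2150 and 2145 with TMM, and moved the median of all genes to 0.146.

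The 77 genes of 20 over 15 min became 344 with total counts, 120 with upper quartile scaling, 46 with no filter, 288 with DESeq2, 627 and 629 with limma at pseudocounts 1 and 10, 22 with only the compared groups and 45 without 1 *mip6Δ* memory sample whose labels disagree on its time. Leaving out libraries gave 11 (without 15 min replicate 3) to 341 (without 20 min replicate 2), with 13 without 15 min replicate 2, 16 without 20 min replicate 1 and 23 without 20 min replicate 3. The 666 genes of the second minus the first response became 1509 and 1503 with limma. Leaving out libraries gave 376 (without first-shock 15 min replicate 2) to 728 (without memory 0 min replicate 3), with 387 without memory 15 min replicate 1 and 394 without memory 0 min replicate 1. The cause of these differences was not tested. No gene was called for *mip6Δ* minus WT under any alternative.

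With the replicate number as a block, the counts were 4573 for 15 over 0 min, 1604 over 2-fold, 462 for 20 over 15 min, 1233 for the second minus the first response and 0 for *mip6Δ* minus WT. Same-numbered samples had correlated deviations of 0.145, 0.0435 and 0.0883, not all over 0.1. The labels describe a culture divided into flasks but do not tie the numbers to cultures, so whether the numbers pair the samples was not settled, and the report gives the block beside the main counts that it moves. Of 3185 alternative values for 189 genes named by the rule, 0 reversed the direction of a called gene. A further 23 lost their call (CCT7, *CIN5*, *CRF1*, *DOT6*, *HOT1*, *MIG1*, *MSN4* and *TAF10*) and 48 gained one. Changes of sign in genes that were not called were not counted as reversals, and *ACT1*, *UBC6* and *TFC1* had values of both signs. Genes named outside the rule, *HSP104* and *BTN2* among them, were not followed singly in these alternatives.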

Other observations

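Some isozyme genes, picked after their values were seen, differed in direction or in call at 15 min, and no count of all such pairs was made. Phosphoglucomutase *PGM2* rose by 4.47 on the log2 scale and *PGM1* fell by 1.14, and the thioredoxin genes *TRX2* and *TRX1* were at 0.56 and −1.29. *COX5B*, the subunit of cytochrome c oxidase known for low oxygen, rose by 1.87, while *COX5A* was at 0.07 and was not called. *EMI2* rose by 1.77, as its relative, the glucokinase gene *GLK1*, did by 2.83.

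Expression of the arginine genes *ARG1* and *ARG3* was higher at 20 min than at 15 min, by 0.91 and 0.73. *IRA2*, a regulator of Ras, *PIN3* and *SIP4* were lower at 20 min, at −1.21, −1.19 and −0.95, and these genes were also picked after their values were seen.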
